A study of Saccharomyces cerevisiae with 4 samples.

Results

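Transcripts of 32 chaperone genes of budding yeast were compared between cultures with an RNase H1 plasmid and cultures with the empty vector. The genes are the cytosolic heat shock chaperones and their helpers, the mitochondrial chaperones and the chaperones that sit on ribosomes. They were chosen by name, by matching a list of 32 symbols to the gene symbols of the array annotation. This gave 33 probe sets (SSB1 has 2) of the 5498 that name exactly 1 S. cerevisiae gene, and all 33 passed the filter on dim probe sets, which kept 5470.

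The series holds 4 Affymetrix Yeast Genome 2.0 arrays, each from total RNA of a separate culture in mid-log growth at 30 °C in synthetic medium without leucine. Every culture was of strain BY4741, a MATa strain with the alleles ura3∆0, leu2∆0, his3∆1 and met15∆0. The 2 control arrays came from cells with the plasmid p425-GPD and its LEU2 marker, and the 2 others from cells in which the same LEU2 plasmid carried RNase H1, written p425-GPD-RNase H1. The p425 plasmids are multicopy, and the GPD promoter is strong and constitutive. RNase H1 removes RNA that is paired with DNA, and the comparison bears on which transcripts respond to its overexpression. The 2 arrays of the second group are called labelled array 1 and labelled array 2, by their replicate numbers.

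Signal sums per array lay between 6889764 and 7097920. RNH1, which encodes yeast's own RNase H1, gave signals of 320.3 and 292 in the controls, 303 in labelled array 1 and 307 in labelled array 2, with no gap between the groups. Because no label names the species of the insert, this is a check only for a yeast insert, and groups are given as labelled. The strain was checked against its markers. The a-specific receptor gene STE2 had signals of 7352 and 7527 in the controls, 3903 in labelled array 1 and 3853 in labelled array 2, against 33.6 to 138 over the 4 arrays for its alpha-specific counterpart STE3, and MFA1, an a-factor gene, lay between 2250 and 4824. All 7 a-specific genes measured were lower in both labelled arrays than in both controls, beside 30.8% of all 5470 probe sets. Of the 7, 3 passed the test described below as lower, beside 0.347% of all. These were STE2 (1.92-fold lower, limma adjusted p = 0.0161), BAR1 (5.80-fold lower, adjusted p = 0.0188) and ASG7 (7.26-fold lower, adjusted p = 0.0428), while STE3 had a level 2.73 times that of the controls and did not pass (adjusted p = 0.133). Their part in the results on chaperones was not tested. The strain lacks URA3 and MET17, and background percentiles were 2.13 (75th) and 4.68 (95th). URA3 had signals of 0.325 and 0.183 in the controls, 2.92 in labelled array 1 and 4.04 in labelled array 2. Only the labelled arrays were above the lower percentile, and the filter on dim probe sets left URA3 untested. MET17 had signals of 2.33 to 9.02 and was above the higher percentile in labelled array 1 alone. HIS3, of which his3∆1 removes only a part, had signals of 3288 to 4098, and LEU2, present on the plasmid, 10348 to 12870. The labelled arrays stood farther apart than the controls. They differed by over 1.5-fold in 1550 of 5470 probe sets (28.3%), and the controls in 182 (3.33%). The actin signal at the 3' end, divided by that at the 5' end, was 1.34 in both control arrays, 1.68 in labelled array 1 and 1.48 in labelled array 2. Its part in the results below was not tested.

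Chaperones bind unfolded proteins and help them fold, keep them soluble or pass them on. Hsp70 proteins do this in cycles of ATP hydrolysis that J-domain proteins (Hsp40) start and nucleotide exchange factors end, and Hsp90 acts later on many kinases and other clients. Yeast keeps a constitutive form of several chaperones beside a stress-induced one. The induced forms are under the heat shock factor Hsf1, many also under the general stress activators Msn2 and Msn4, whereas the ribosome-bound Ssb chaperones are transcribed along with ribosomal proteins.

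None of the 33 probe sets passed the test in either direction, against 1.48% of all 5470 tested, 1.13% higher and 0.347% lower (limma on log2 signals, Benjamini-Hochberg adjusted p under 0.05 over all of them). Before adjustment, 2 members were higher (6.06%, beside 11% of all probe sets) and 3 lower (9.09%, beside 12.7%) at p under 0.05, together 15.2% beside 23.7%. The higher ones were FES1 and APJ1, and the lower ones SBA1, HSC82 and ZUO1. The groups did not overlap in 16 of the 33 (48.5%, beside 58.8% of all), with 4 higher (beside 28%) and 12 lower (beside 30.8%). The median log2 fold change of the members, labelled arrays minus controls, was −0.11, beside −0.02 over all probe sets. In RNA from a whole culture, a change in fewer cells and a smaller change in all cells cannot be told apart.

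The 2 labelled arrays, taken apart, did not show the same chaperone levels. Labelled array 1 lay above both controls and labelled array 2 below both in 11 of the 33 probe sets (33.3%), beside 14.6% of all probe sets. The opposite arrangement occurred in 0 of the 33, beside 6.58% of all. The 11 were HSP82, AHA1, SSA3, SSE2, SIS1, HSP104, HSP42, BTN2, CUR1, MDJ1 and HSP78. This way of counting was chosen after the values were seen and is a description with no test. After quantile scaling it gave 15 of 33 (9.93% of all), after median scaling 11 (10.2%) and after cyclic loess scaling 16 (10.2%). The labelled arrays were over 1.5-fold apart in 14 of the 33, always with array 1 higher, beside 19% of all probe sets with that direction. The 2 controls were over 1.5-fold apart in 0 of the 33, and their widest gap was 1.20-fold.

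**Figure D1:**
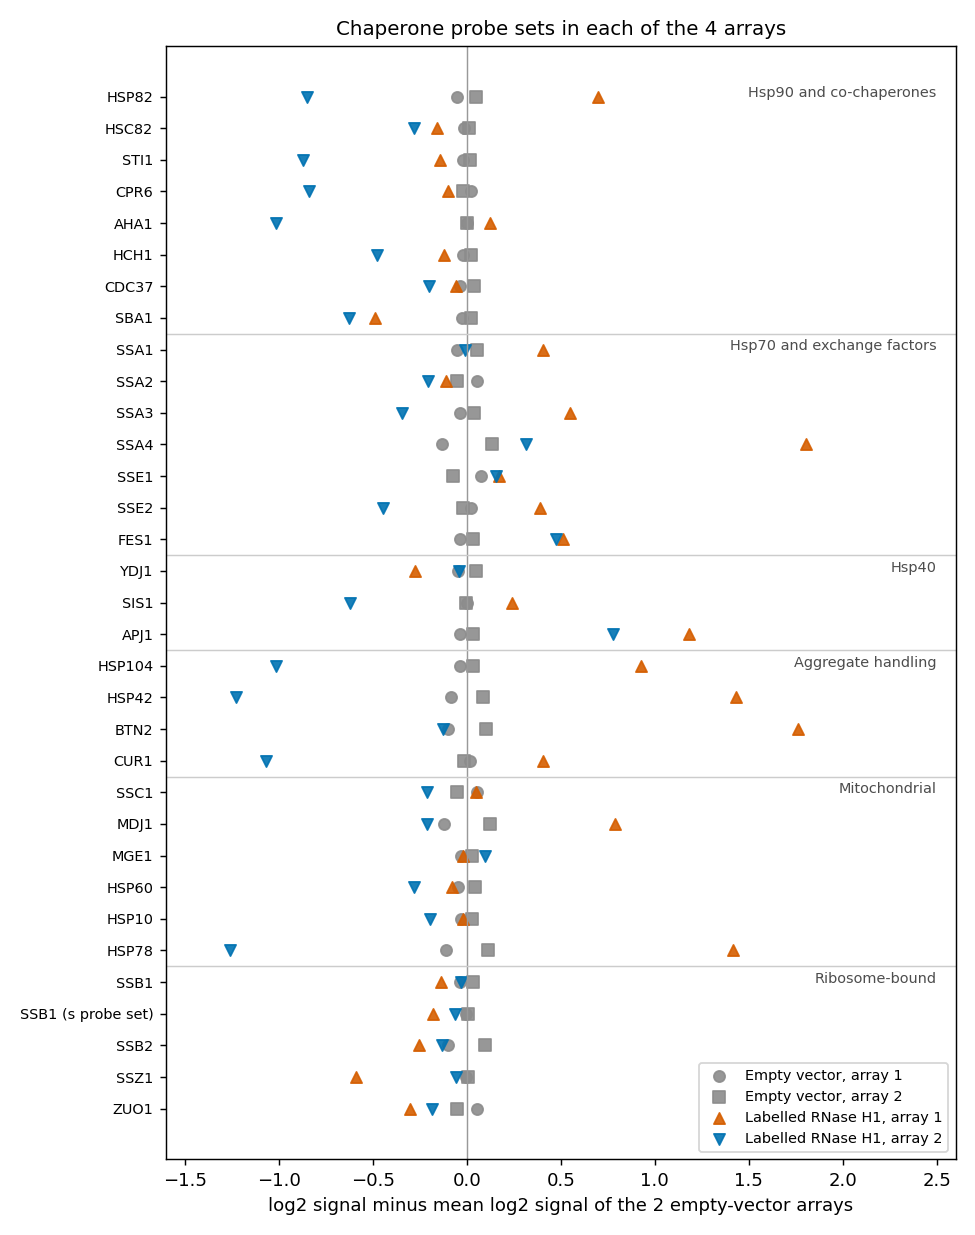
Each row is a chaperone probe set and each point 1 of the 4 arrays, with the log2 signal minus the mean log2 signal of the 2 control arrays on the x axis. The controls (grey) stay within 1.20-fold of each other, labelled array 1 (up triangles) reaches 1.80 at SSA4, and labelled array 2 (down triangles) reaches −1.26 at HSP78.

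All 4 members grouped here as aggregate handling genes showed this arrangement. It does not hold for every gene with such a role. APJ1, grouped below with the J-domain genes, and HSP26, not a member, were above both controls in both labelled arrays. HSP104 (YLL026W), the ATP-driven disaggregase, had signals of 2483 and 2608 in the controls, 4839 in labelled array 1 and 1259 in labelled array 2. HSP42 (YDR171W), a small heat shock protein that gathers misfolded proteins, had signals of 844 and 949 in the controls, 2409.9 in labelled array 1 and 381 in labelled array 2. For both genes the control arrays lay close together and between the labelled arrays, which were 3.84-fold and 6.32-fold apart. BTN2 (YGR142W), which sorts misfolded proteins into deposits, had signals of 738 and 847 in the controls, 2681 in labelled array 1 and 724 in labelled array 2. Its relative CUR1 (YPR158W), which acts in the nucleus, had signals of 303 and 296 in the controls, 397 in labelled array 1 and 143 in labelled array 2. Labelled array 1 was above the controls in all 4 genes, by 1.32-fold (CUR1) to 3.39-fold (BTN2). Labelled array 2 was below the mean of the controls in all 4 genes, by 1.09-fold (BTN2, next to the lower control) to 2.35-fold (HSP42). The class median of the log2 difference from the controls was 1.18 in labelled array 1 and −1.04 in labelled array 2, with the same signs after quantile, median and cyclic loess scaling.

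With the labelled arrays averaged, HSP104 and HSP42 were close to the controls, and BTN2 and CUR1 less so. The log2 fold changes were −0.04 ± 0.64 (SE, n = 2 against 2) for HSP104, 0.10 ± 0.87 for HSP42, 0.82 ± 0.63 for BTN2 and −0.33 ± 0.51 for CUR1, with limma adjusted p between 0.468 and 0.972. The 95% intervals were wide, −1.70 to 1.62 for HSP104, −2.18 to 2.38 for HSP42, −0.82 to 2.46 for BTN2 and −1.67 to 1.00 for CUR1. The sign for HSP104 turned after cyclic loess scaling, at 0.05.

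HSP78 (YDR258C), the mitochondrial relative of HSP104, had signals of 645 and 754 in the controls, 1859.9 in labelled array 1 and 291 in labelled array 2. The labelled arrays were 6.38-fold apart, and only 0.384% of all tested probe sets had a larger excess of labelled array 1 over labelled array 2. Mitochondrial Hsp70, encoded by SSC1 (YJR045C), pulls proteins across the inner membrane and folds them. SSC1 had signals of 4779.7 and 4441 in the controls, 4768 in labelled array 1 and 3982 in labelled array 2. Its J-protein gene MDJ1 (YFL016C) had signals of 1135 and 1348 in the controls, 2133 in labelled array 1 and 1069 in labelled array 2, and its exchange factor gene MGE1 (YOR232W) had signals of 2182 and 2275 in the controls, 2195 in labelled array 1 and 2387 in labelled array 2. Of this trio MDJ1 set the labelled arrays farthest apart, at 2.00-fold, against 1.20-fold for SSC1 and 0.92 for the ratio of labelled array 1 to labelled array 2 in MGE1. The chaperonin HSP60 (YLR259C) had signals of 6408 and 6819.9 in the controls, 6256 in labelled array 1 and 5439 in labelled array 2. Its lid HSP10 (YOR020C) had signals of 4767 and 4962 in the controls, 4800.2 in labelled array 1 and 4242 in labelled array 2. HSP60 and HSP10 form the folding chamber of the matrix, and their labelled arrays were 1.15-fold and 1.13-fold apart. The log2 fold change was −0.18 ± 0.09 for HSP60 (adjusted p = 0.299) and 0.08 ± 0.88 for HSP78 (adjusted p = 0.966), both from limma. The median over the 6 mitochondrial genes was 0.02 in labelled array 1 and −0.21 in labelled array 2, and the former was −0.08 after median scaling.

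Among the Hsp90 genes, the induced form differed between the labelled arrays and the constitutive one hardly did. HSP82 (YPL240C), the induced form, had signals of 2103 and 2253 in the controls, 3532 in labelled array 1 and 1209 in labelled array 2. HSC82 (YMR186W), the constitutive form, had signals of 6740.5 and 6864 in the controls, 6102 in labelled array 1 and 5591 in labelled array 2. HSP82 was 1.62-fold above the controls in labelled array 1 and 1.80-fold below them in labelled array 2, a gap of 2.92-fold, while the gap for HSC82 was 1.09-fold. The log2 fold change of HSC82 was −0.22 ± 0.07 as deposited (95% interval −0.40 to −0.03, limma adjusted p = 0.173). It was −0.11 after quantile, −0.25 after median and −0.06 after cyclic loess scaling. That of HSP82 was −0.08 ± 0.51 (limma adjusted p = 0.943), which became 0.00 after cyclic loess scaling. The coding sequences of HSP82 and HSC82 are nearly identical, so some signal may be shared between their probe sets, which was not tested.

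The 6 co-chaperones of Hsp90 among the members were lower in labelled array 2 than in either control. STI1 (YOR027W), which bridges Hsp70 and Hsp90, had signals of 5264 and 5408 in the controls, 4839 in labelled array 1 and 2919 in labelled array 2. CPR6 (YLR216C), a cyclophilin that binds Hsp90, had signals of 3117 and 3029 in the controls, 2864 in labelled array 1 and 1719 in labelled array 2. AHA1 (YDR214W), an activator of the Hsp90 ATPase, had signals of 1942 and 1939 in the controls, 2115 in labelled array 1 and 961 in labelled array 2. In these 3 genes labelled array 2 lay 1.83-fold, 1.79-fold and 2.02-fold below the controls, and labelled array 1 at most 1.10-fold away from them. HCH1 (YNL281W), a relative of AHA1, had signals of 3943 and 4064 in the controls, 3684 in labelled array 1 and 2871 in labelled array 2. CDC37 (YDR168W), which brings kinases to Hsp90, had signals of 1351 and 1425 in the controls, 1333 in labelled array 1 and 1207 in labelled array 2. Both lay closer to the controls, at 1.39-fold and 1.15-fold below them in labelled array 2. The 9 other Hsp90 and Hsp70 partners, which are not members, did not share this direction. Labelled array 2 was above both controls in CNS1, PPT1, TAH1 and SNL1 and below both in PIH1 and SIL1. It lay between the controls in CPR7, SGT1 and SWA2.

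SBA1 (YKL117W), the yeast p23 that steadies the closed form of Hsp90, was the co-chaperone whose labelled arrays agreed best. It had signals of 4407 and 4562 in the controls, 3194 in labelled array 1 and 2902 in labelled array 2. Both labelled arrays were below both controls and 1.10-fold apart, and the log2 fold change was −0.56 ± 0.09 (1.47-fold lower, SE, n = 2 against 2). It was the member with the smallest p but did not pass (limma adjusted p = 0.071, 0.00104 to 0.537 over all alternatives). It passed in the fits without 1 labelled array and in a fit with a crossed replicate block, added after the data were seen (adjusted p = 0.00186), and in none of the other alternatives at an adjusted p under 0.05. The median log2 difference of the 6 co-chaperones was −0.11 in labelled array 1, which turned to 0.01 after cyclic loess scaling, and −0.73 in labelled array 2, which stayed between −0.72 and −0.64 under the other scalings. As deposited, all 8 members of the Hsp90 group had log2 fold changes below 0, with a median of −0.37, and none passed. This direction holds for the members as grouped here. Of the 9 other Hsp90 and Hsp70 partners, 7 were above 0 and 2 below.

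**Figure D2:**
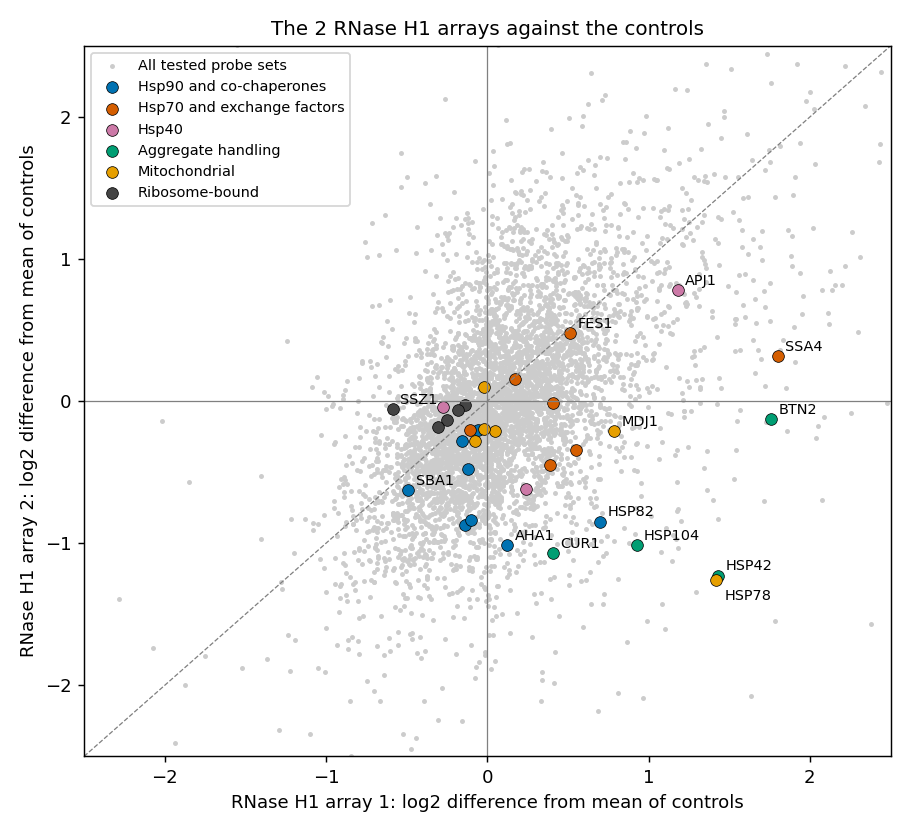
Each point is a probe set, with its log2 difference from the mean of the controls in labelled array 1 on the x axis and in labelled array 2 on the y axis, and the dashed line marks equal values. Of all tested probe sets (light grey), 89 lie outside the axes. HSP78, HSP42, HSP104 and HSP82 are at the lower right, APJ1 and FES1 lie nearer to the line, and the ribosome-bound genes (dark grey) lie to the left of the origin, with SSZ1 farthest.

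Of the cytosolic Hsp70 genes, the constitutive forms were SSA1 and SSA2 and the stress-induced ones SSA3 and SSA4. SSA1 (YAL005C) had signals of 3594 and 3877 in the controls, 4941 in labelled array 1 and 3702 in labelled array 2. SSA2 (YLL024C) had signals of 9621 and 8944 in the controls, 8597 in labelled array 1 and 8039.6 in labelled array 2. SSA2 varied least of the 4, at 1.07-fold between the labelled arrays, and SSA1 was 1.32-fold above the controls in labelled array 1 and between them in labelled array 2. SSA3 (YBL075C) had signals of 185 and 195 in the controls, 278 in labelled array 1 and 149.7 in labelled array 2. SSA4 (YER103W) had signals of 357 and 429 in the controls, 1365 in labelled array 1 and 487 in labelled array 2. In SSA4 both labelled arrays were above both controls, at 3.49-fold and 1.24-fold their mean, so the size rested on labelled array 1. Its log2 fold change of 1.06 ± 0.51 was the highest of all members (95% interval −0.28 to 2.40) and did not pass (limma adjusted p = 0.28). SSA1 and SSA2 also share most of their sequence, so their probe sets may share signal, which was not tested.

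Hsp70 exchange factors of both the constitutive and the induced kind were measured. SSE1 (YPL106C), the main Hsp110, had signals of 6712 and 6065 in the controls, 7179 in labelled array 1 and 7107 in labelled array 2. SSE2 (YBR169C), its stress-induced relative, had signals of 620.0 and 603 in the controls, 801 in labelled array 1 and 449 in labelled array 2. The labelled arrays were 1.01-fold apart for SSE1 and 1.79-fold for SSE2. FES1 (YBR101C), an exchange factor of cytosolic Hsp70 unrelated to Hsp110, had signals of 1797 and 1886 in the controls, 2629 in labelled array 1 and 2561 in labelled array 2. In FES1 the labelled arrays were 1.03-fold apart and above both controls, with a log2 fold change of 0.50 ± 0.10 (1.41-fold, 95% interval 0.22 to 0.77) that did not pass (limma adjusted p = 0.0946). At an adjusted p under 0.10, FES1 was the 1 member higher and SBA1 the 1 member lower, together 6.06% of the members beside 6.67% of all probe sets (3.51% higher and 3.16% lower).

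Of the J-domain genes, APJ1 was above the controls in both labelled arrays. APJ1 (YNL077W), a J-protein involved in the turnover of protein aggregates, had signals of 156 and 164 in the controls, 362 in labelled array 1 and 274 in labelled array 2. It was 2.27-fold above the controls in labelled array 1 and 1.72-fold in labelled array 2, with a log2 fold change of 0.98 ± 0.23 (1.97-fold, 95% interval 0.38 to 1.58, limma adjusted p = 0.109). SIS1 (YNL007C), an essential J-protein and a target of Hsf1, had signals of 3247 and 3239 in the controls, 3832 in labelled array 1 and 2108 in labelled array 2. YDJ1 (YNL064C), the most general J-protein of the cytosol, had signals of 5144 and 5499 in the controls, 4386 in labelled array 1 and 5159 in labelled array 2. SIS1 set labelled array 1 above the controls and labelled array 2 1.54-fold below them, whereas YDJ1 had its lowest signal in labelled array 1.

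**Figure D3:**
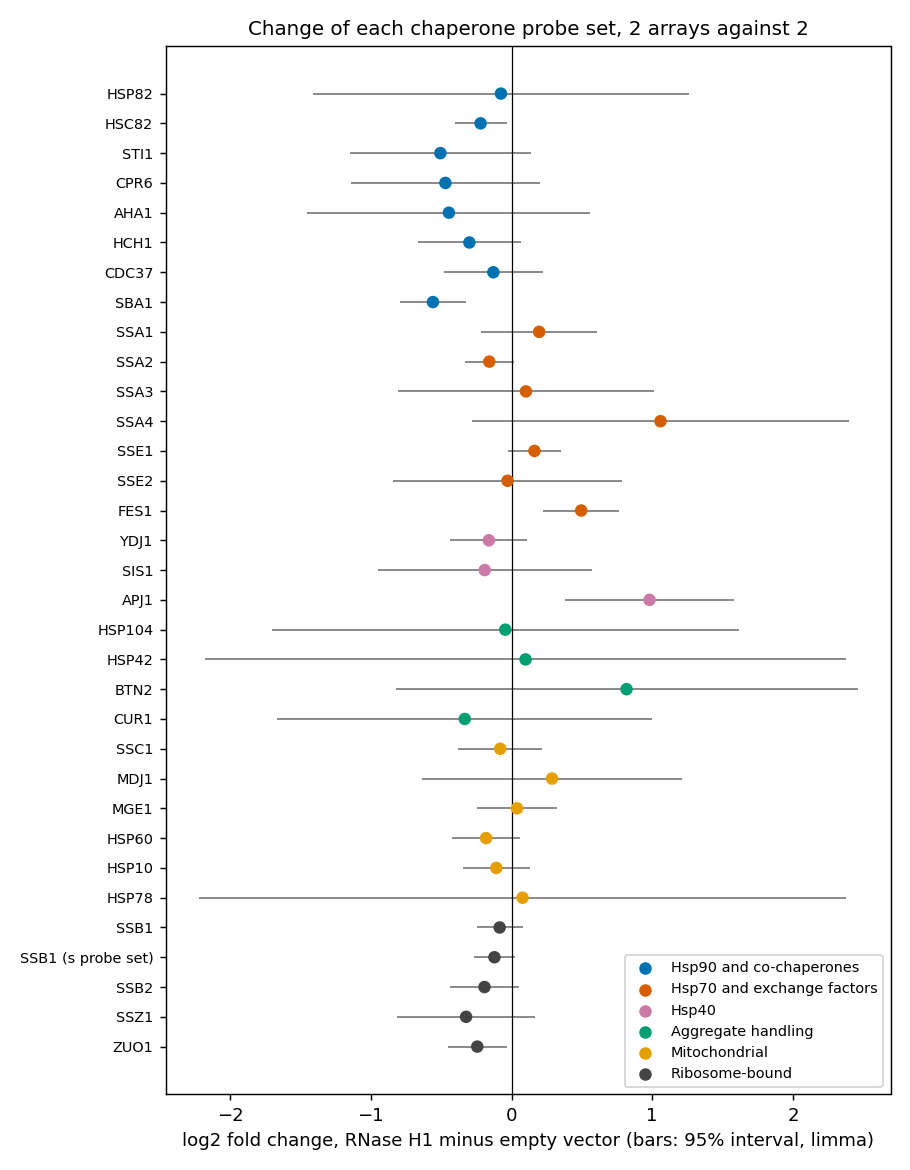
Points give the log2 fold change of each probe set, labelled arrays minus controls, and bars its 95% interval from limma (n = 2 against 2). Intervals are widest for HSP78 and HSP42, whose labelled arrays disagreed most. With the signals as deposited, those of SBA1, HSC82, FES1, APJ1 and ZUO1 do not reach 0, though none of these passed after adjustment.

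Of the ribosome-bound chaperones, the Ssb genes had labelled arrays at most 1.09-fold apart. SSB1 (YDL229W) and SSB2 (YNL209W) encode the Hsp70 that holds nascent chains at the ribosome. The probe set for SSB1 had signals of 8800.3 and 9225 in the controls, 8189.6 in labelled array 1 and 8822 in labelled array 2. A further one, which the array's naming marks as matching several transcripts, had signals of 11178 and 11279.5 in the controls, 9909.6 in labelled array 1 and 10753 in labelled array 2. SSB2 had signals of 6654 and 7636 in the controls, 5986 in labelled array 1 and 6504 in labelled array 2. These 3 probe sets were below the mean of the controls by 1.02-fold to 1.19-fold in the labelled arrays, and the SSB1 probe set and its second one had 95% intervals of −0.25 to 0.08 and −0.27 to 0.03 for the log2 fold change. The small downward shift of the 2 SSB1 probe sets depended on the scaling. It turned to 0.05 and 0.00 after quantile scaling and to 0.09 and 0.07 after cyclic loess scaling. After median scaling it stayed downward, at −0.12 and −0.16. SSB2 stayed below 0, at −0.08 after quantile, −0.23 after median and −0.03 after cyclic loess scaling. SSB1 and SSB2 are nearly identical in sequence, so their signals may not be separate.

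SSZ1 and ZUO1 form the ribosome-associated complex that stimulates Ssb. SSZ1 (YHR064C), an Hsp70 relative, had signals of 4117 and 4146 in the controls, 2749 in labelled array 1 and 3971 in labelled array 2. ZUO1 (YGR285C), its J-protein partner, had signals of 6324 and 5878 in the controls, 4941 in labelled array 1 and 5369.5 in labelled array 2. SSZ1 was below both controls in both labelled arrays, which were 1.44-fold apart, at −0.59 on the log2 scale in labelled array 1 and −0.06 in labelled array 2. ZUO1 was below both controls in both labelled arrays, with a log2 fold change of −0.24 ± 0.08 (limma adjusted p = 0.178). This change was −0.14 after quantile, −0.28 after median and −0.10 after cyclic loess scaling. In all 5 ribosome-bound probe sets labelled array 2 was the higher of the labelled arrays, beside 40.1% of all probe sets as deposited. The 5 kept this order under quantile, median and cyclic loess scaling. In contrast, labelled array 1 was the higher in 26 of the 33 members, beside 59.9% of all as deposited. After median scaling these counts were 23 of 33 and 2698 of 5470. After quantile scaling they were 26 of 33 and 2848 of 5470, and after cyclic loess scaling 26 and 2833. The median log2 fold change of the ribosome-bound class was −0.19, and −0.08 and −0.03 after quantile and cyclic loess scaling. The 148 probe sets of ribosomal proteins had a median of −0.19 too, and −0.07 and −0.03 under those scalings. None of those 148 passed (limma), although 89 were lower and 0 higher with p under 0.05 before adjustment (60.1%, beside 12.7% of all probe sets lower), with RPS9B at −0.37 ± 0.05 and RPS21B at −0.37 ± 0.05.

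**Figure D4:**
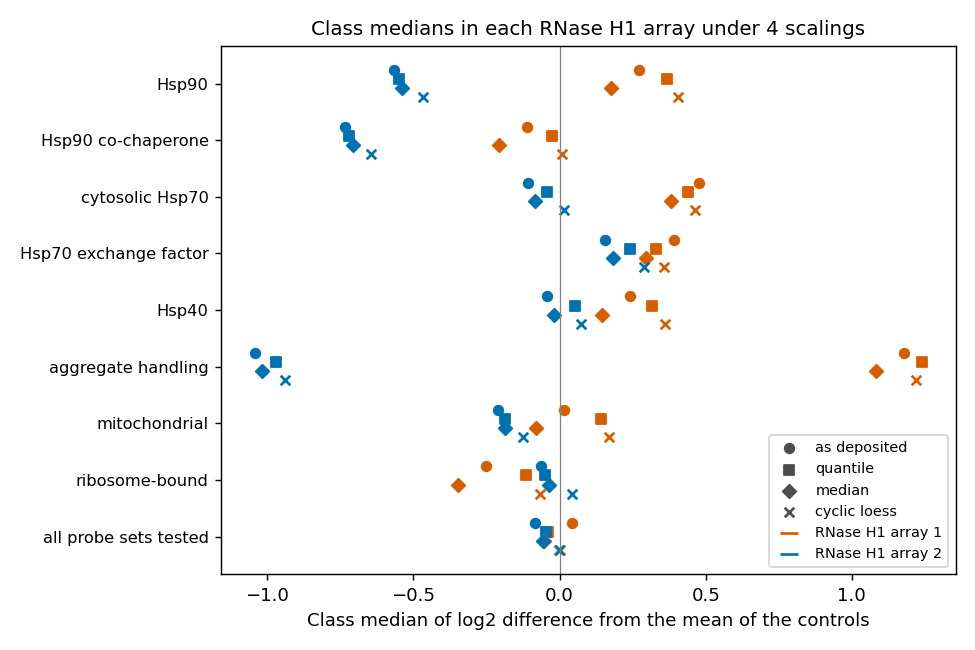
Points are class medians of the log2 difference from the mean of the controls in labelled array 1 (orange) and labelled array 2 (blue), with a symbol for each of 4 scalings. The aggregate handling genes stay near 1.18 and −1.04 under all 4. The ribosome-bound class lies between −0.35 and −0.07 in labelled array 1 and between −0.06 and 0.04 in labelled array 2, and all probe sets tested lie between −0.08 and 0.04.

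Leaving out a labelled array shows how far the outcome rests on each. Without labelled array 1, 16 members passed as lower and 2 as higher, beside 29.3% and 21.6% of all probe sets. Without labelled array 2, 13 passed as higher and 5 as lower, beside 17% and 15.2%. Such a fit takes its spread from the controls alone, so passing in it is no sign of stability. Both fits use the same 2 controls. The share of all probe sets that passed in both was not counted, so the members named next cannot be set against it. The members that passed in both fits in 1 direction were SBA1, lower, and FES1 and APJ1, higher. HSP82, SSE2, SIS1, HSP104, HSP42 and HSP78 passed in both in opposite directions. Without control array 1, 0 members passed, beside 0.987% of all probe sets as higher and 0.183% as lower. Without control array 2, 0 passed, beside 1.04% and 0.183%.

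Other folding machinery did not pass either. TRiC, the cytosolic chaperonin that folds actin and tubulin, had a median log2 fold change of −0.15 over its 8 genes, 0 past the threshold, with CCT8 at −0.40 ± 0.12 and CCT7 at −0.37 ± 0.13. In all 8, labelled array 2 was above labelled array 1, under each of the 4 scalings. Prefoldin, which hands actin and tubulin to TRiC, had a median of −0.03 over 6 genes, with PFD1 at −0.38 ± 0.19 and PAC10 at −0.28 ± 0.29. The nascent chain complex, which covers new chains at the tunnel exit, had a median of −0.30 over 3 genes, with EGD2 at −0.30 ± 0.07 and EGD1 at −0.23 ± 0.06. Of 9 other Hsp90 and Hsp70 partners the median was 0.15, with SNL1, a membrane-anchored Hsp70 partner, at 0.59 ± 0.18 and TAH1, a co-chaperone of Hsp90, at 0.40 ± 0.17. Of 10 other J-proteins it was 0.06, with XDJ1 at 0.57 ± 0.19 and JJJ3 at 1.11 ± 0.38, and of 7 other mitochondrial chaperones and proteases 0.02, with ECM10 at 0.61 ± 0.30 and MCX1 at 0.28 ± 0.20. In these 6 lists 0 genes passed (limma). With p under 0.05 before adjustment, TRiC had 0 higher and 2 lower, the nascent chain complex 0 and 2, the partners 1 and 0, and the J-proteins 3 and 1, while prefoldin and the mitochondrial list had 0, beside 11% higher and 12.7% lower of all probe sets. Labelled array 1 above both controls with labelled array 2 below both was found in 3 of the 7 mitochondrial genes (SSQ1, JAC1 and TCM62, 42.9%), 1 of 6 in prefoldin, 1 of 9 partners and 0 in the other 3 lists, beside 14.6% of all probe sets.

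In a list of the heat shock regulator and other heat-induced genes, labelled array 1 was above labelled array 2 in 12 of 12, under each of the 4 scalings, beside 59.9% of all probe sets as deposited. Labelled array 1 above both controls with labelled array 2 below both was found in 1 of the 12 (8.33%, beside 14.6% of all). Both labelled arrays were above both controls in 5 (HSP30, HSP26, DDR2, HSP12 and UBI4), or 41.7%, beside 28% of all. They were below both in 2 (MBF1 and GRE3), or 16.7%, beside 30.8% of all. In either direction the share was 58.3%, close to the 58.8% of all probe sets. HSP30, a plasma membrane protein induced by heat and weak acids, had signals of 83.5 and 81.4 in the controls, 4331 in labelled array 1 and 432 in labelled array 2. HSP26, a small heat shock protein, had signals of 576 and 840.4 in the controls, 4647 in labelled array 1 and 1924 in labelled array 2. In both genes each labelled array was above both controls, at 52.5-fold and 5.24-fold their mean for HSP30 and 6.68-fold and 2.77-fold for HSP26. Neither passed, with log2 fold changes of 4.05 ± 1.09 (limma adjusted p = 0.129) and 2.10 ± 0.46 (limma adjusted p = 0.1). HSF1, the heat shock factor gene, chosen for mention after its values were seen, had signals of 519 and 456 in the controls, 723 in labelled array 1 and 459 in labelled array 2. Its labelled array 2 lay between the controls. CTT1, the cytosolic catalase and a target of Msn2 and Msn4, also chosen afterwards, had signals of 213 and 282 in the controls, 527 in labelled array 1 and 80.9 in labelled array 2, and was the 1 gene of the list with the arrangement of HSP104 and HSP42. The list's median log2 fold change was 0.29. Before adjustment HSP26 and HSP30 were higher with limma p under 0.05 (16.7%, beside 11% of all probe sets), and 0 lower (beside 12.7%).

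In the gene order of the R64 annotation, HSP104 and SSA2 were the closest pair of members, with 1 gene between them. Their labelled arrays were 3.84-fold and 1.07-fold apart.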

How the data were processed

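The authors deposited intensity values, 1 linear signal per probe set and array, made with Affymetrix Expression Console and MAS5, per the submitters' processing notes. The sources used here do not give the scaling target. MAS5 signals depend on the probes, so levels were compared between arrays and not between genes, except in the checks of the strain. Gene names came from the array annotation and were updated through the R64 gene table.

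Log2 signals were compared with limma 3.58.1 in R 4.3.3 (lmFit, eBayes with an intensity trend, two-sided), over 5470 probe sets whose mean log2 signal was above the 75th percentile of the S. pombe probe sets on the array, a signal of 2.13. P-values were adjusted by Benjamini-Hochberg over all of them, with a threshold of 0.05. With 2 arrays a group, the smallest p of an exact permutation test is 0.333. On simulated data for this comparison, with 200 of 5470 probe sets changed, the steps recovered 28.3% of changes of 1 log2 unit and 63.3% of changes of 2. The simulation gave both groups the same spread and added upward changes only. In the data the median SD of log2 signals was 0.236 in the labelled arrays and 0.0756 in the controls, so these rates may not hold for them.

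The members, classes and other lists were chosen with earlier results of these data known, and no list was tested as a set. All members are named. Of each other list, genes past the threshold or else the 2 with the smallest p are named, along with RNH1, STE2, STE3, MFA1, LEU2, URA3, HIS3 and MET17 as checks. Genes named beside small counts were chosen after their values were seen. All 9 other Hsp90 and Hsp70 partners are named, which was also decided after their values were seen. Alternatives covered the scaling (quantile, median, cyclic loess), the dim filter (none, or the 95th percentile), a pseudocount (16 or 64), the variance model (robust, or without the trend), the threshold (adjusted p under 0.10), a replicate block and leaving out each array. A crossed block was added after seeing the data. The number of arrays limits the precision. Promoter motifs were not searched.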

Additional observations from a re-analysis of the deposited data

How the results depend on the processing

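The counts of members past the threshold, 0 higher and 0 lower, were the same under quantile, median and cyclic loess scaling, either dim filter, both pseudocounts, no intensity trend, robust eBayes and without either control array. At an adjusted p under 0.10 there was 1 higher and 1 lower. Over the fits that leave out 1 array, the count ranged from 0 to 13 higher and from 0 to 16 lower, with fewer samples to set the spread. The replicate block gave 0 higher and 0 lower. The numbers were not taken as pairs, because the labels do not say that equal numbers share a day or culture. In the data, deviations of arrays with equal replicate numbers correlated at −0.30. A crossed block, added after seeing the data, gave 4 higher and 3 lower, beside 8.83% and 8.3% of all probe sets. Of 495 member values under alternatives, 433 kept their direction and side of the threshold, 25 turned direction and 37 passed in the same direction. After quantile scaling the turned ones were SSA2 (0.0031) and the SSB1 probe sets (0.0457 and 0.0044). After cyclic loess scaling they were HSP82 (0.0028), SSA2 (0.0199), HSP104 (0.0454), SSC1 (0.0506), HSP10 (0.0263) and the SSB1 probe sets (0.0936 and 0.0695). The cause was not tested. Over the fits without 1 array, the members that turned direction were the following. The log2 fold change ran for HSP78 from −1.26 to 1.42, for SSA1 from −0.012 to 0.40, for SSA3 from −0.34 to 0.55, for HSP42 from −1.23 to 1.43, for BTN2 from −0.13 to 1.76, for MDJ1 from −0.21 to 0.79, for HSP82 from −0.85 to 0.70. It ran for AHA1 from −1.01 to 0.12, for SSE2 from −0.45 to 0.39, for SIS1 from −0.62 to 0.24, for HSP104 from −1.02 to 0.93, for CUR1 from −1.07 to 0.41, for SSC1 from −0.21 to 0.0494, for MGE1 from −0.0215 to 0.0993. Of 120 class medians, 108 moved by less than the spread between replicates and 12 by more.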
